A study of Arabidopsis thaliana with 30 samples.

Results

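HD-Zip class I proteins are plant transcription factors in which a homeodomain is followed by a leucine zipper. The 9 genes described here are HB1 (AT3G01470), HB5 (AT5G65310), HB6 (AT2G22430), HB16 (AT4G40060), HB7 (AT2G46680), HB12 (AT3G61890), HB13 (AT1G69780), HB20 (AT3G01220) and HB23 (AT1G26960), out of 27770 nuclear protein-coding and miRNA genes. They were chosen by their TAIR10 gene identifiers with earlier results of these same peak lists known. HB6 was already known to be among the most enriched genes, so the levels below are a description and no test was made on them. The family has 17 class I genes in Arabidopsis, and the other 8 are given as counts and by status at the end.

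The lists come from ChIP-seq of 14-day-old Arabidopsis seedlings grown at 22 °C in 16 h light and 8 h dark on MS-based medium. BRM-GFP, the tagged SWI/SNF ATPase BRM, was profiled in the brd1/2/13 triple mutant and in a BRM-GFP line whose genotype the sample labels do not give. BRD1-GFP, BRD2-dBromo-GFP, BRD2-GFP and BRD13-GFP are tagged bromodomain subunits of the same complexes, with no genotype in the labels. The name BRD2-dBromo-GFP points to BRD2 with a changed bromodomain. H4K5ac and H4K8ac, 2 acetylated forms of histone H4, were profiled in brd1/2/13 and in WT. Each of these 10 groups had 2 replicates with a peak list each, 20 in all, and the 10 inputs were not used here. The antibody field of the acetylation samples names GFP, and their titles, which name the marks, were followed. Replicates are only numbered, and no label says whether their seedlings were grown apart, so the spread between them may be technical, and whole seedlings mix many cell types.

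SWI/SNF complexes use the energy of ATP to move or remove nucleosomes, and bromodomains bind acetylated lysines such as those of the H4 tail. Class I HD-Zip factors bind as dimers to a pseudopalindrome written CAATNATTG, and in seedlings they are best known for responses to water deficit, abscisic acid and light. The 9 genes are placed in 3 clades of the family. HB1, HB5, HB6 and HB16 form one (beta), HB7 and HB12 another (gamma), and HB13, HB20 and HB23 the last (alpha). Their proteins have 235 to 312 residues. Pairs within a clade shared 31.04% to 72.2% of aligned residues, and pairs from different clades 23.1% to 32.8%. The closest pairs were HB6 with HB16 (72.2%), HB13 with HB23 (63.7%) and HB7 with HB12 (60.5%). HB1 stood apart, with 31.04% to 31.6% identity to the beta genes and 32.7% to HB20 and 31.9% to HB13 of the alpha clade, so these identities alone do not place it in the beta clade.

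A gene's window is its body with the 1 kb upstream of its start, and its best peak in a list is the peak with the highest fold among those that overlap the window. Fold is the ratio of reads at the summit of a peak to the local background, as the authors' peak caller gave it. The percentile of a gene in a list is the percent of all 27770 genes with a lower best fold there. A group has a region where peaks of both replicates merge into one stretch. Lists differ in depth. The background coverage of a list is given as the floor of the local background, near its lowest value over the peaks, so single peaks can have more. It was 36.4 to 37.0 reads in BRM-GFP in brd1/2/13 and 10.01 to 18.6 in BRM-GFP. In the 8 lists of BRD proteins it was 24.1 to 38.1, and in the 8 acetylation lists 24.2 to 29.4. Lists held 6131 to 20742 peaks, the fewest in BRM-GFP in brd1/2/13, where the largest q was 0.01 against 0.05 elsewhere. Fold therefore compares genes within a list, and the difference of a gene between groups is set beside that of all genes.

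All 9 genes had a region of BRM-GFP, of BRD1-GFP, of BRD2-GFP and of BRD13-GFP. Of all genes 55.6% had a region of BRM-GFP, 66% of BRD1-GFP, 63.1% of BRD2-GFP and 55.7% of BRD13-GFP. The altered BRD2, BRD2-dBromo-GFP, also had a region at 9 of the 9, against 62.2% of all genes. BRM-GFP in brd1/2/13 had a region at 5 of the 9 genes, against 20.7% of all genes. With 6129 peaks kept in each list, BRM-GFP had a region at 6 genes and BRM-GFP in brd1/2/13 at 5, and no share of all genes was taken there. H4K5ac had a region at 7 genes in brd1/2/13 and at 7 in WT, against 71.6% and 70.2% of all genes. H4K8ac had one at 8 genes in brd1/2/13 and at 8 in WT, against 65.3% and 65.4%. Regions of all 10 groups were present at 3 of the 9 genes, HB1, HB5 and HB12, against 17.9% of all genes. The median percentile of the 9 genes was 86.6 in BRM-GFP in brd1/2/13, 85.9 in BRM-GFP and between 92.3 and 95.3 in the groups of BRD proteins. In H4K5ac it was 39.9 in brd1/2/13 and 40.8 in WT, and in H4K8ac 47.2 in brd1/2/13 and 52.6 in WT.

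**Figure D1:**
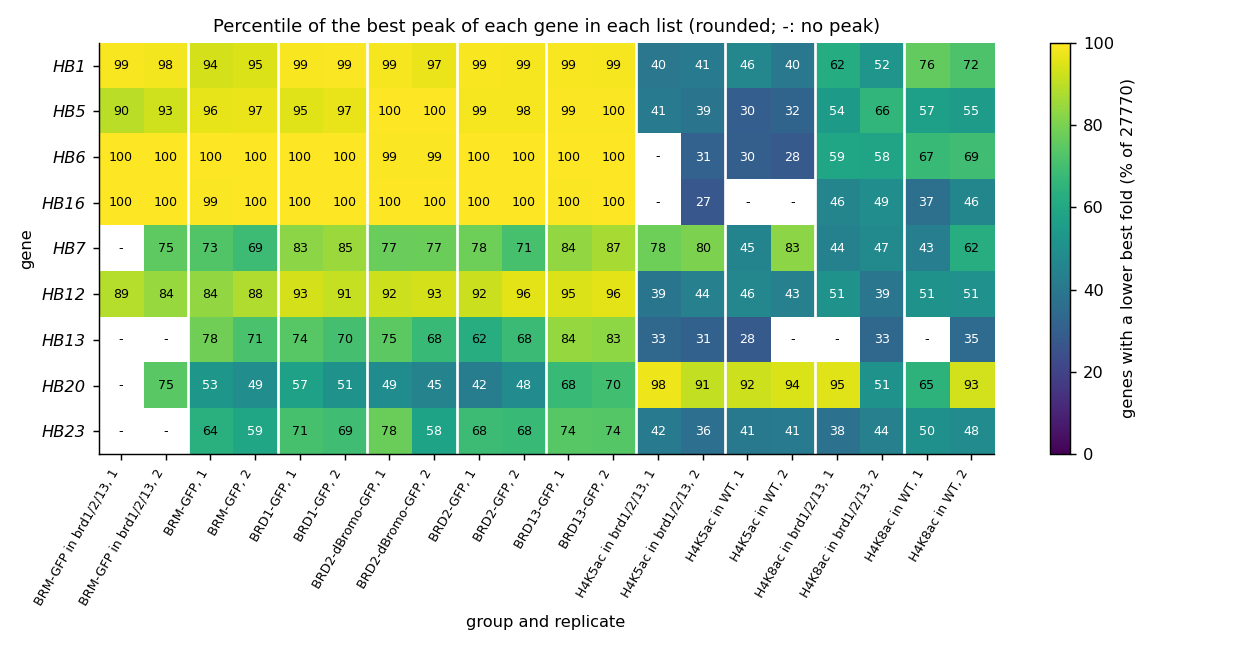
Percentile of the best peak of the 9 genes (rows) among all 27770 genes in each of the 20 lists (columns, group and replicate), rounded, with a dash where a gene had no peak. HB6 and HB16 lay between 99.3 and 99.99 in all 12 GFP lists. Where they had an acetylation peak, they lay between 27.3 and 69.4.

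HB6 and HB16 stood highest. HB6 is a target of the abscisic acid phosphatase ABI1 and restrains the response to that hormone, and HB16 acts in leaf cell expansion and in the response of flowering to day length. Both were at or above percentile 99 in all 12 GFP lists, which held for 17 of the 27770 genes. Most GFP summits lay just after the 2 gene starts. The 250 bases before each start are shown, from TAIR10 in the direction of transcription, at chr2:9527846-9528095 and chr4:18573085-18573334, both on the minus strand. None of the 12 best GFP summits of either gene fell inside these stretches. Capitals mark runs of 9 or more bases that both stretches hold in the same direction.
HB6: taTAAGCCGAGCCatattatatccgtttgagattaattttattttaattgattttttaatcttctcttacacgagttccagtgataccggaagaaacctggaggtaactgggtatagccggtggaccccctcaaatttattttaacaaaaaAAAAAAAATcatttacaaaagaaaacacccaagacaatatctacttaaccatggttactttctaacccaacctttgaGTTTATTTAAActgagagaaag
HB16: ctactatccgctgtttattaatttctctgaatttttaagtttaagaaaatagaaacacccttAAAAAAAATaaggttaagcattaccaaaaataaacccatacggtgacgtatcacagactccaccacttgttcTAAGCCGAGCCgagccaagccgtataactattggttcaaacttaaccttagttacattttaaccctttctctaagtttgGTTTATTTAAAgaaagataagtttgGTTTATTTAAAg
The run TAAGCCGAGCC begins at -248 in HB6 and at -116 in HB16, and 4 of 27769 upstream stretches of this length hold it (0.0144%). The run GTTTATTTAAA begins at -22 in HB6 and at -37 and -12 in HB16, and 19 stretches hold it (0.0684%). The remaining run, AAAAAAAAT, is common, at 6.92% of upstream stretches. HB6 and HB16 are themselves counted in each of these shares, and the runs were picked because both stretches hold them. How often 2 upstream stretches share runs of such length was not counted.

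At HB6 (chromosome 2, 9525988 to 9527845, minus strand, 3 exons) the BRM-GFP fold was 5.18 and 5.15 in brd1/2/13, against 17.4 and 15.4 in BRM-GFP. The summits held 201 and 204 reads in brd1/2/13, against 190 and 300 reads in BRM-GFP, over local backgrounds of 38.0 and 38.8 reads against 10.01 and 18.6. The counts at the summit overlapped while the backgrounds did not, and the folds of the mutant lists were all below those of BRM-GFP. BRD1-GFP had folds of 17.4 and 17.2 at HB6 and BRD13-GFP of 26.1 and 24.0. BRD2-dBromo-GFP had 8.21 and 7.59, against 11.9 and 11.2 in BRD2-GFP. Its 12 GFP summits fell between 3 and 124 bp after the start, 10 of them within 100 bp, all in the 5′ UTR.

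At HB16 (chromosome 4, 18571239 to 18573084, minus strand, 3 exons) the BRM-GFP fold was 3.98 and 4.60 in brd1/2/13, against 12.8 and 15.01 in BRM-GFP. BRD1-GFP had folds of 19.99 and 20.02, and BRD13-GFP of 19.5 and 20.3. BRD2-dBromo-GFP had 8.96 and 8.93, against 12.5 and 11.3 in BRD2-GFP. HB16 had the highest mean of the 9 genes in BRD1-GFP, BRD2-dBromo-GFP and BRD2-GFP, and HB6 in BRM-GFP in brd1/2/13, BRM-GFP and BRD13-GFP, with replicate folds that overlapped between HB16 and HB6 only in BRD2-GFP. In 10 of its 12 GFP lists the best summit of HB16 lay 2 to 49 bp after the start. The exceptions were both lists of BRM-GFP in brd1/2/13, with summits 1370 and 1340 bp after the start, in the coding part of exon 3, against 38 and 49 bp in BRM-GFP. Between the 2 groups the mean of the best summits was 1312 bp apart at HB16 and 51.5 bp apart at HB6. Of the 5 genes with folds in all 4 BRM lists, 3 had means over 1000 bp apart, HB16, HB12 (1661 bp) and HB5 (5922 bp), against 13.0% of 5575 genes. At HB5 the 2 BRM-GFP summits lay at 4086 and 8016 bp, and at HB12 those of brd1/2/13 at 243 and -988 bp. There the replicates of one group were themselves over 1000 bp apart, and the mean marks a place without a summit. Mutant peaks that do not overlap the window do not enter these distances.

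The same pair had little H4K5ac. HB16 had no H4K5ac peak in WT, and in brd1/2/13 it had none in replicate 1 and a fold of 1.74 in replicate 2. HB6 had no peak in replicate 1 of brd1/2/13 and a fold of 2.11 in replicate 2, against 1.91 and 1.72 in WT. Of the 17 genes at or above percentile 99 in every GFP list, 14 had a WT H4K5ac region (82.4%) and 16 a WT H4K8ac region (94.1%). HB16 was thus among the 3 without H4K5ac in WT, and both genes were among the 16 with H4K8ac. The H4K8ac fold of HB16 was 2.38 and 2.54 in brd1/2/13, against 1.93 and 2.35 in WT.

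HB1 and HB5 complete the beta clade. HB1 promotes hypocotyl elongation in short days, and HB5 promotes responses to abscisic acid in seedlings. At HB1 (chromosome 3, 182396 to 184403, minus strand) the BRM-GFP fold was 3.53 and 3.58 in brd1/2/13, against 7.72 and 8.42 in BRM-GFP. The folds of HB1 in the other GFP lists ran from 6.08 in BRD2-dBromo-GFP replicate 2 to 16.9 in BRD13-GFP replicate 1. Of its 12 best GFP summits, 11 lay 1387 to 1554 bp after the start, at the end of the third intron or in exon 4, and 1 lay at 216 bp, in BRM-GFP replicate 1. These 11 lay 273 to 440 bp before the start of AT3G01475, a gene that runs the other way inside the body of HB1, so the signal of the 2 genes cannot be told apart by position.

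At HB5 (chromosome 5, 26101818 to 26104614, minus strand) the BRM-GFP fold was 2.29 and 2.67 in brd1/2/13, against 9.09 and 9.90 in BRM-GFP. BRD13-GFP reached 18.6 and 19.6, and the BRD1-GFP, BRD2-dBromo-GFP and BRD2-GFP folds lay between 8.22 and 9.30. The peaks of HB5 were the widest of the set, with a median of 9960 bp over the GFP lists and up to 13539 bp. Their summits lay outside the window: the best summit of 9 of the 12 GFP lists fell between 3915 and 4114 bp after the start, past the 3′ end of HB5 and in no annotated gene, and that of BRM-GFP replicate 2 at 8016 bp, 484 bp before the start of AT5G65300. Among mutant peaks that overlap the window, the best summits of BRM-GFP in brd1/2/13 lay at -7 and 265 bp, at the start of HB5. Mutant peaks beyond the window were not counted, and both mutant lists had one at the centre of the BRM-GFP region, past the 3′ end. HB5 stayed among the 5 retained genes when a mutant peak was required there. Because the strongest point of the domain lies beyond the gene, the 200 bases around it at chr5:26100500-26100699, centred on the summit of BRD13-GFP replicate 2, are shown on the minus strand of TAIR10, with matches of ACGTG, on either strand, in capitals.
HB5: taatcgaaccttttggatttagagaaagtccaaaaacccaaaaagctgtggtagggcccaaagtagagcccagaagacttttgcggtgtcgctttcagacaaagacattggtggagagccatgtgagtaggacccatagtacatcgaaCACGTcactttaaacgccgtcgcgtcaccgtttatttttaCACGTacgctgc

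HB7 and HB12, the gamma clade, are induced by water deficit and abscisic acid and act on the clade A phosphatase genes that damp that hormone's signal. They differed more from each other than HB6 did from HB16. At HB12 (chromosome 3, 22914154 to 22915393, minus strand, 2 exons) the BRM-GFP fold was 2.21 and 2.17 in brd1/2/13, against 5.36 and 6.33 in BRM-GFP. BRD13-GFP reached 10.9 and 11.5, and the folds of the other BRD lists ran from 5.06 to 8.47. At HB7 (chromosome 2, 19165274 to 19166967, minus strand, 2 exons) BRM-GFP had no peak in replicate 1 of brd1/2/13 and a fold of 1.72 in replicate 2, against 4.09 and 3.78 in BRM-GFP. Over the 20 lists the percentiles of HB7 and HB12 differed by 27.2 points (root mean square), against 13.2 for HB6 and HB16 and 18.5 for HB13 and HB23.

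Their summits were placed differently too. In 9 of its 11 GFP lists with a peak, HB7 had its best summit between -81 and 30 bp from the start, and 8 of these lay before the start. The exceptions were replicate 1 of BRD1-GFP and of BRD13-GFP, at -1873 and -1892 bp. At HB12 the best summit lay about 2 kb upstream, outside the window, and 9 of the 12 GFP lists had it between -2106 and -1907 bp, in no annotated gene. The exceptions were BRD2-dBromo-GFP replicate 2, at -3850 bp, and both lists of BRM-GFP in brd1/2/13, at 243 and -988 bp. To show where these summits fall, the 250 bases before the start of HB7 at chr2:19166968-19167217 are given with -81 to -1 in capitals, and the 200 bases at chr3:22917300-22917499, centred on the BRD13-GFP replicate 2 summit upstream of HB12, with its ACGTG match, read on the other strand, in capitals, both on the minus strand in TAIR10.
HB7: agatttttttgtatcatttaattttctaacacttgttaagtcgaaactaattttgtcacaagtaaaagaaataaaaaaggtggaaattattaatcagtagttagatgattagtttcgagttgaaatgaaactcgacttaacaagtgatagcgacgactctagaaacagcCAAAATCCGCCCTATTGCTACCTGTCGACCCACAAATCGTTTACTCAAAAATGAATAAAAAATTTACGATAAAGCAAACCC
HB12: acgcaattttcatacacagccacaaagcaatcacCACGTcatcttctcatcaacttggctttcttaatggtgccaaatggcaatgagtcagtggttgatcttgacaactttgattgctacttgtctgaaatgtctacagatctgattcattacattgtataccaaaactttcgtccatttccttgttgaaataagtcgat

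HB13, HB20 and HB23, the alpha clade, had the lowest GFP folds with HB7. HB13 acts in stem elongation and in tolerance of cold and drought, HB20 in seed dormancy and germination under abscisic acid, and HB23 in lateral root initiation. BRM-GFP had no peak at HB13 and none at HB23 in either list of brd1/2/13, against folds of 4.63 and 4.03 at HB13 and of 3.36 and 3.06 at HB23 in BRM-GFP. At HB20 it had no peak in replicate 1 of brd1/2/13 and a fold of 1.68 in replicate 2, against 2.73 and 2.50 in BRM-GFP. The BRM-GFP peaks of HB20 rested on 29 and 48 reads at the summit (exact 95% Poisson intervals 19.4 to 41.6 and 35.4 to 63.6, which cover counting error only), the fewest of the 9 genes. BRD13-GFP had the highest mean fold of the GFP groups at each of the 3 genes, from 6.58 and 6.20 at HB13, 3.79 and 4.004 at HB20 and 4.63 and 4.50 at HB23. At HB23 these overlapped the BRD1-GFP folds of 4.56 and 3.97, and at HB13 and HB20 they lay above those of every other GFP list. The best BRD13-GFP summits of HB23 lay at 1971 and -729 bp, so its 2 replicates rest on different peaks. At the upstream peaks of HB23 BRD13-GFP had 4.52 and 4.50, against 2.74 and 2.84 in BRD1-GFP. At the peaks around its 3′ end BRD13-GFP had 4.63 and 4.32, against 4.56 and 3.97 in BRD1-GFP. At HB13 the BRD13-GFP summits lay past the gene, so its folds and those of BRM-GFP come from different places. The BRD13-GFP peaks of HB13 with a summit in the window had folds of 2.87 and 2.24, below those of BRM-GFP.

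The alpha genes also differed in where the peaks lay. At HB13 (chromosome 1, 26258788 to 26260781, plus strand) the BRM-GFP summits lay 594 and 529 bp after the start, in the first intron. All 8 best summits of the BRD lists at HB13 lay 2037 to 2171 bp after it, just past the 3′ end of the gene, and 5 of these lists also had weaker peaks, of fold 1.75 to 2.87, with summits from -965 to 200 bp. At HB23 (chromosome 1, 9355827 to 9357502, plus strand) every BRM-GFP and BRD list had a peak upstream, with summits from -892 to -714 bp, and another whose summit lay 1221 to 1979 bp after the start, around the 3′ end. At HB20 (chromosome 3, 73307 to 75539, plus strand) the best summit of all 11 GFP lists with a peak lay 5 to 416 bp after the start, in the 5′ UTR or the coding part of exon 1. Weaker peaks of HB20 had summits 1154 to 1197 bp after the start, in an intron, in 4 BRD lists, at 2198 bp in the 3′ UTR in BRM-GFP replicate 1, and at 2519 and 2479 bp, past the gene, in BRD1-GFP.

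**Figure D2:**
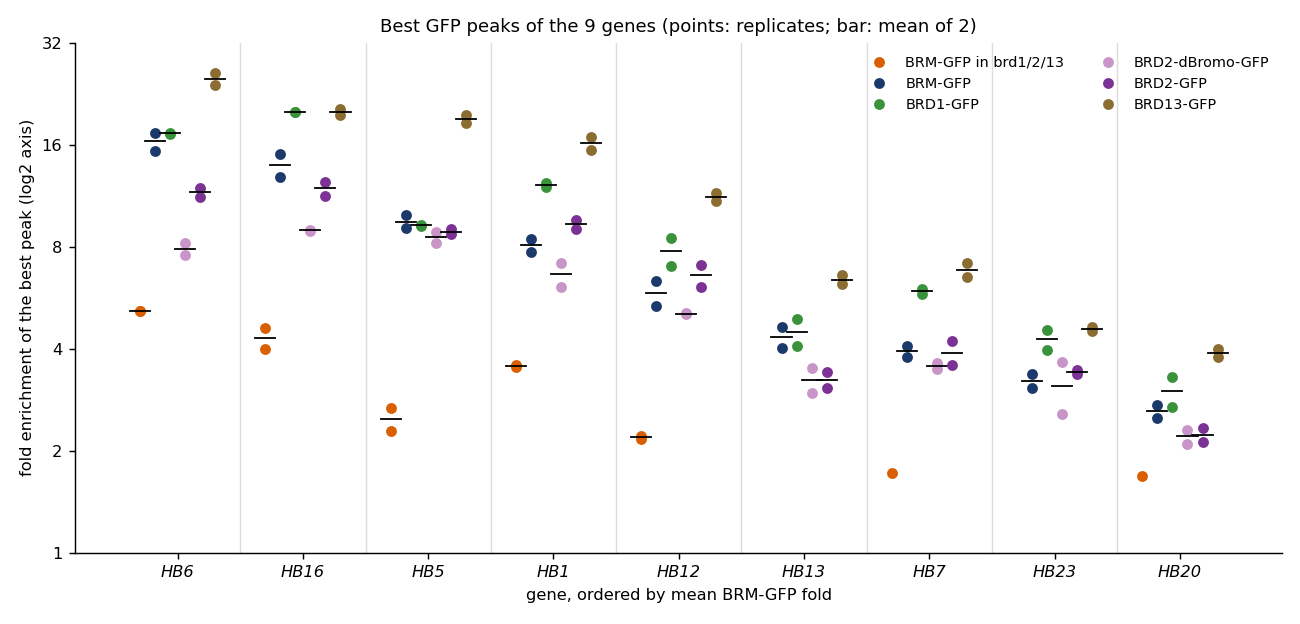
Fold enrichment of the best GFP peak (log2 axis) at the 9 genes, ordered by their mean in BRM-GFP, with 1 point per replicate and a bar at the mean of 2. The 5 genes on the left, HB6, HB16, HB5, HB1 and HB12, have BRM-GFP folds of 5.36 and above and a peak in both lists of BRM-GFP in brd1/2/13, and HB13 and HB23 have none there.

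The comparison of BRM-GFP in brd1/2/13 with BRM-GFP asks how BRM occupancy depends on the 3 BRD proteins. A gene is called retained where at least 1 of its BRM-GFP regions overlaps a peak in both mutant lists, partly retained where only 1 list does, and lost where none does. HB1, HB5, HB6, HB16 and HB12 were retained (5 of 9), against 43.8% of the 15432 genes with a BRM-GFP region. HB7 and HB20 were partly retained (2 of 9), against 15.1%. HB13 and HB23 were lost (2 of 9), against 41.1%. All 4 beta genes were retained, 1 gamma gene was retained and 1 partly retained, and no alpha gene was retained. This holds for an overlap of 1 bp. Where mutant peaks had to cover 50% of a region, 3 genes were retained, so not all 4 beta genes were.

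Status went with the BRM-GFP fold. The 5 retained genes were those with both BRM-GFP folds above 5, a value set after the folds were seen. Among all genes with both folds above 5, 89.7% of 4515 were retained and 3.699% were lost, and among the 10515 genes with a fold of 5 or less 24.5% were retained and 56.8% were lost. Of the 9 genes, 5 of 5 above that fold and 0 of 4 at or below it were retained. The call also depends on how much of a region the mutant peaks have to cover: where they had to cover 50% of it, 3 genes were retained and 5 lost, and without replicate 2 of BRM-GFP in brd1/2/13 4 genes were lost, HB7 and HB20 besides HB13 and HB23.

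Where both mutant lists had a peak, both folds were below both BRM-GFP folds at 5 of 5 genes. The same held for 99.8% of the 5575 genes with a fold in all 4 lists, and the reverse, with both mutant folds higher, for 0 of the 5 and 0% of all genes. The median log2 ratio of brd1/2/13 over BRM-GFP was -1.66 over the 5 genes and -1.32 over all genes (quartiles -1.57 and -1.07). HB5 had the lowest ratio of the 5, -1.94, with 5.69% of genes lower, and HB1 the highest, -1.18, with 64.5% of genes lower. The ratio of HB5 sets mutant peaks at its start against BRM-GFP peaks beyond its 3′ end, since mutant peaks outside the window were not counted. That of HB12 likewise compares different places. With the summit required in the window neither had a ratio, and the median of the other 3 genes was -1.66. In percentile, HB5 stood at 91.4 in brd1/2/13 and 96.8 in BRM-GFP, and HB1 at 98.7 in brd1/2/13 and 94.2 in BRM-GFP. The BRM-GFP lists had the lowest background coverage of all lists, and the part of this in the ratio was not tested.

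**Figure D3:**
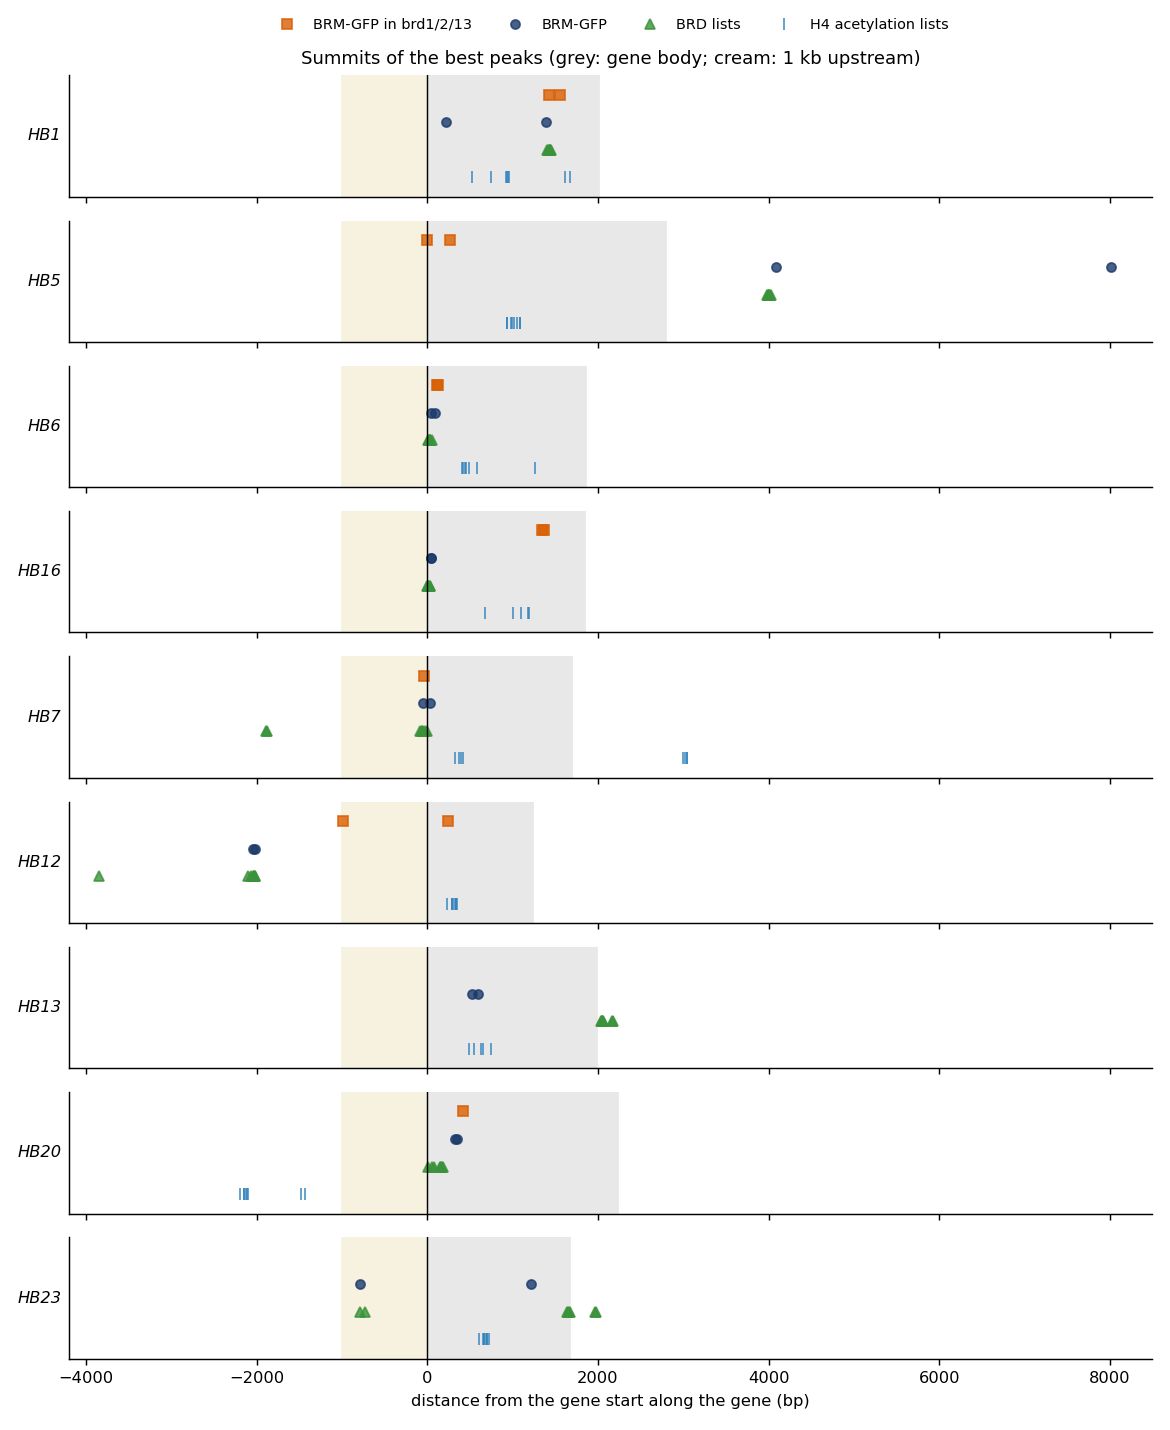
Distance of the summit of the best peak from the gene start along the gene (bp) for BRM-GFP in brd1/2/13, BRM-GFP, the BRD proteins and H4 acetylation, with the gene body in grey and the 1 kb upstream in cream. Most GFP summits sit at the start of HB6 and HB7 and near the 3′ end of HB1. At HB12 most lie about 2 kb upstream, and at HB5 about 4 kb past the start. At HB13 those of the BRD lists lie past the 3′ end and those of BRM-GFP in the first intron. Among peaks that overlap the window, the best mutant summits of HB16, HB5 and HB12 lie apart from those of BRM-GFP.

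BRD2-dBromo-GFP was set against BRD2-GFP to ask what the altered bromodomain changes. Both folds of BRD2-dBromo-GFP were below both of BRD2-GFP at 4 of 9 genes, HB1, HB6, HB16 and HB12, against 50.8% of the 15796 genes with 4 folds. They were above at 0 of 9 genes, against 12.2%. HB1 had 7.17 and 6.08 in BRD2-dBromo-GFP, against 9.58 and 9.05 in BRD2-GFP. HB12 had 5.10 and 5.06 in BRD2-dBromo-GFP, against 6.10 and 7.07 in BRD2-GFP. The replicates overlapped at the other 5 genes, among them HB5 with 8.84 and 8.22 in BRD2-dBromo-GFP, against 8.997 and 8.69 in BRD2-GFP.

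The log2 ratio ran from -0.55 at HB6 and -0.49 at HB1 to -0.0018 at HB13, and its median was -0.13 over the 9 genes and -0.17 over all genes. Set against the median of all genes the sign of the list's median turned, to 0.03. Relative to all genes HB6 lay at -0.38 and HB1 at -0.33, and 8.86% and 12.1% of genes had a lower ratio.

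Acetylation of H4 was compared between brd1/2/13 and WT in the same way. For H4K5ac, 6 genes had a fold in all 4 lists, and both folds of brd1/2/13 were above both of WT at 1 of them, HB5, against 35% of 19010 genes. They were below at 0 of 6, against 12.9%. HB5 had H4K5ac folds of 2.97 and 2.68 in brd1/2/13, against 1.91 and 2.08 in WT, a log2 ratio of 0.50, and 98.5% of genes had a lower one. Its best summits lay 932 to 1086 bp after the start, in the coding part of exon 2. Both lists of brd1/2/13 held another peak in the 5′ UTR, at 180 and 193 bp with folds of 2.09 and 2.26, and neither WT list had one there. The median log2 ratio was 0.07 over the 6 genes and 0.07 over all genes, and over the genes it turned to -0.018 with the summit required in the window or with the gene body only.

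HB7 and HB20 had the highest H4K5ac folds, but these came from summits beside neighbouring genes. The best H4K5ac summit of HB20 lay upstream in all 4 lists, at -2191 to -2102 bp, 157 to 246 bp after the start of RP2, with folds of 8.67 and 7.08 in brd1/2/13, against 6.95 and 7.27 in WT. Peaks whose summit lay within the window of HB20 reached 2.26 and 2.61 in brd1/2/13, against 2.53 and 2.77 in WT. The best H4K5ac summit of HB7 lay 3017 to 3049 bp after its start in 3 of the 4 lists, 1283 to 1315 bp after the start of AT2G46670, with folds of 5.90 and 6.03 in brd1/2/13 and of 5.97 in WT replicate 2. The exception was WT replicate 1, with 3.10 at 320 bp. Within the window HB7 had 4.06 and 3.39 in brd1/2/13, against 3.10 and 3.19 in WT, with summits 320 to 373 bp after the start. The reads at these summits, 123 and 97 in brd1/2/13 against 88 and 103 in WT, overlapped. By the best peak the folds of the 2 genotypes overlapped at HB7, and no share of all genes was taken for summits in the window.

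H4K5ac at HB13 was weak as well, with folds of 2.29 and 2.08 in brd1/2/13, against 1.74 in WT replicate 1 and no peak in WT replicate 2. At HB12 the folds were 2.73 and 3.14 in brd1/2/13, against 3.25 and 2.99 in WT. At HB23 they were 3.002 and 2.50 in brd1/2/13, against 2.74 and 2.77 in WT, and at HB1 2.83 and 2.92 in brd1/2/13, against 3.21 and 2.68 in WT. The replicates of the 2 genotypes overlapped at each of HB1, HB12 and HB23.

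**Figure D4:**
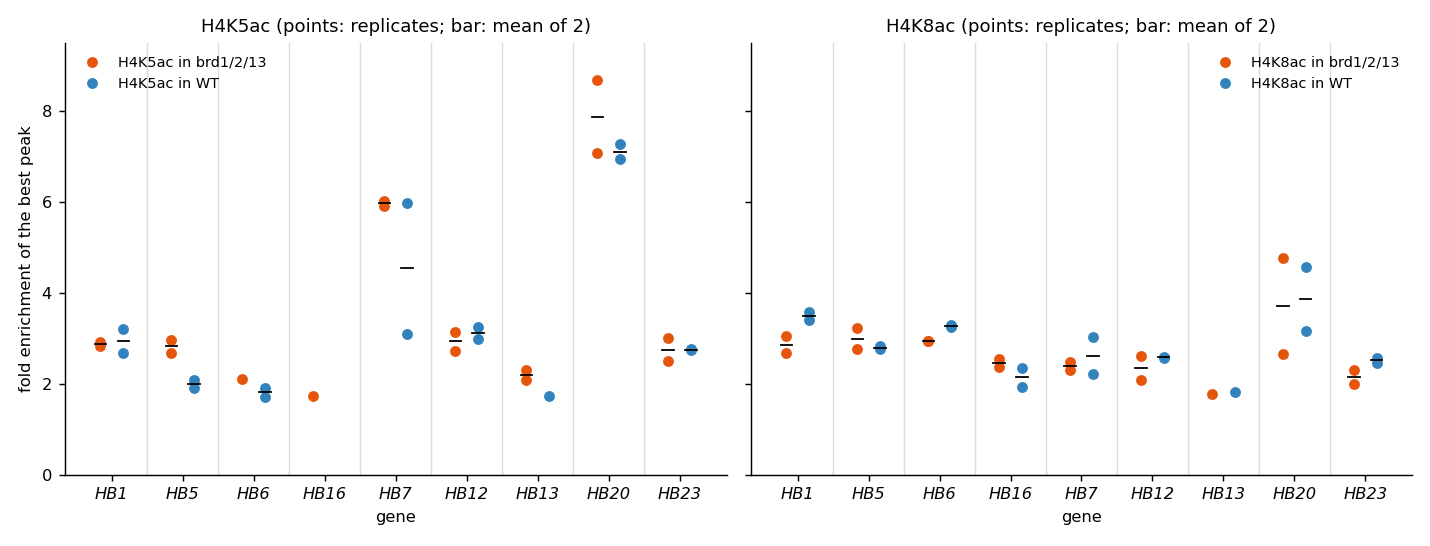
Fold enrichment of the best H4K5ac (left) and H4K8ac (right) peak at the 9 genes in brd1/2/13 and in WT, with 1 point per replicate and a bar at the mean where both replicates have a peak. HB5 is higher in brd1/2/13 for H4K5ac, HB1, HB6 and HB23 are lower for H4K8ac, and HB16 has no WT point for H4K5ac.

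For H4K8ac, 8 genes had a fold in all 4 lists. Both folds of brd1/2/13 were below both of WT at 3 of 8 genes, HB1, HB6 and HB23, against 19% of 17300 genes, and above at 1 of 8, HB16, against 22.7%. At HB1 the folds were 3.04 and 2.69 in brd1/2/13, against 3.58 and 3.39 in WT. At HB6 they were 2.93 and 2.94 in brd1/2/13, against 3.25 and 3.29 in WT. At HB23 they were 2.00 and 2.30 in brd1/2/13, against 2.56 and 2.46 in WT.

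The log2 ratios of these 3 genes were -0.28, -0.16 and -0.23, and that of HB16 was 0.20. The median over the 8 genes was -0.13, and over all genes 0.01. Some of these folds come from summits beside neighbouring genes. The best H4K8ac summits of HB20 all lay upstream of its window, at -2146 to -1435 bp, and that of HB7 in WT replicate 2 at 2994 bp. Within the window HB20 had 2.15 and 2.37 in brd1/2/13, against 2.43 and 2.36 in WT. With the summit required in the window, the median over the 8 genes was -0.11. HB13 alone had no H4K8ac region, with peaks in replicate 2 of brd1/2/13 (1.77) and of WT (1.83) only. With 2 lists against 2, an exact permutation test could not give a p below 0.333, and no test was made of these differences.

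The best acetylation summits lay further into the gene than the best GFP summits at HB6, and at HB16 outside the lists of BRM-GFP in brd1/2/13. At HB6 the acetylation summits lay 406 to 1266 bp after the start, against 3 to 124 bp for the GFP lists, and the 2 ranges did not overlap. At HB16 they lay 677 to 1190 bp after it, against 2 to 49 bp in those 10 GFP lists. The best acetylation summits at HB12, HB23 and HB5 lay between 229 and 1086 bp, in coding exons. The order was not the same at every gene. In 9 of the 12 GFP lists the best summit lay between -2106 and -1907 bp at HB12, and between 3915 and 4114 bp at HB5. At HB23 the best GFP summits ran from -790 to 1972 bp. At HB1 the median best summit was at 936 bp for acetylation and at 1429.5 bp for the GFP lists. None of the 7 genes with an H4K5ac region in WT had both best WT summits within 250 bp of the start, against 17.2% of all genes with such a region. For BRM-GFP 3 of 9 genes did, HB6, HB16 and HB7, against 30.3%.

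In the 5 GFP groups in which all 9 genes had 2 folds, HB6, HB16, HB1 and HB5 filled the first 4 places and HB12 the fifth, and HB20 was last. In BRM-GFP in brd1/2/13 only these first 5 genes had 2 folds, and HB12 was the lowest of them. Neighbours whose replicates overlapped were HB13 and HB7 in BRM-GFP, BRD13-GFP and BRD2-dBromo-GFP, HB13 and HB23 in BRD1-GFP, BRD2-GFP and BRD2-dBromo-GFP, HB16 and HB6 in BRD2-GFP, and HB16 and HB5 in BRD13-GFP. The replicates of all other neighbours in these orders did not overlap, although some gaps were smaller than the difference between replicates. In BRD2-dBromo-GFP, for example, HB16 had 8.96 and 8.93 and HB5 had 8.84 and 8.22.

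The 4 motifs searched in the 1 kb upstream of the starts, on both strands and with overlapping matches, were CAATNATTG, the class I pseudopalindrome, CACGTG, the G-box, ACGTG, the core of the abscisic acid response element that the G-box also contains, and GAGAGA. CAATNATTG occurred at 0 of 9 genes, against 3.44% of 27769 upstream stretches, and CACGTG at 0 of 9, against 14.8%. ACGTG occurred at 5 of 9 genes (HB1, HB5, HB6, HB7 and HB12), against 54.3%, and GAGAGA at 5 of 9 (HB5, HB6, HB16, HB12 and HB13), against 57.2%. HB12 had 4 matches of ACGTG. In the 200 bases around the best BRD13-GFP summit of replicate 2, ACGTG occurred at 2 of 9 genes, HB5 and HB12, against 31.3% of the 32426 summits of both BRD13-GFP lists.

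The other 8 class I genes had fewer regions than the genes described above, which were chosen with earlier results known. BRM-GFP had a region at 3 of the 8, against 55.6% of all genes, and BRM-GFP in brd1/2/13 at 0, against 20.7%. BRD1-GFP had one at 5, against 66% of all genes, and BRD2-dBromo-GFP at 6, against 62.2%. BRD2-GFP had one at 5, against 63.1%, and BRD13-GFP at 5, against 55.7%. The counts of the BRD groups were thus close to or above the shares of all genes. H4K5ac had a region at 2 of the 8 in brd1/2/13 and at 2 in WT, against 71.6% and 70.2% of all genes. H4K8ac had one at 1 gene in brd1/2/13 and at 0 in WT, against 65.3% and 65.4%. HB3, an alpha gene, and HB53 were lost, with BRM-GFP folds of 3.45 and 3.16 at HB3 and of 3.18 and 3.42 at HB53. HB54 counted as retained through a region that reaches past its window, since no mutant peak overlapped the window itself. HB21, HB40, HB22, HB51 and HB52 had no BRM-GFP region. Of these HB21 and HB40 act with HB53 in the arrest of axillary buds, HB51 (LATE MERISTEM IDENTITY1) promotes floral meristem identity, and HB22 had no peak in any GFP list.

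In the rest of the HD-Zip family, regions of BRM-GFP, BRD1-GFP, BRD2-GFP and BRD13-GFP together were present at 9 of 10 class II genes, 5 of 5 class III genes and 10 of 16 class IV genes, beside 9 of the 9 genes and 3 of the other 8 class I genes, against 49.2% of all genes. Of the genes with a BRM-GFP region, 6 of 9 in class II, 3 of 5 in class III and 3 of 11 in class IV were retained. This stands beside 5 of the 9 genes and 43.8% of all genes with such a region. Lost genes numbered 3 in class II, 2 in class III and 4 in class IV, against 41.1% of all genes with such a region. The median GFP percentile of class II, from 76.8 in BRD1-GFP to 84.9 in BRM-GFP in brd1/2/13, was below that of the 9 genes in each GFP group.

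**Figure D5:**
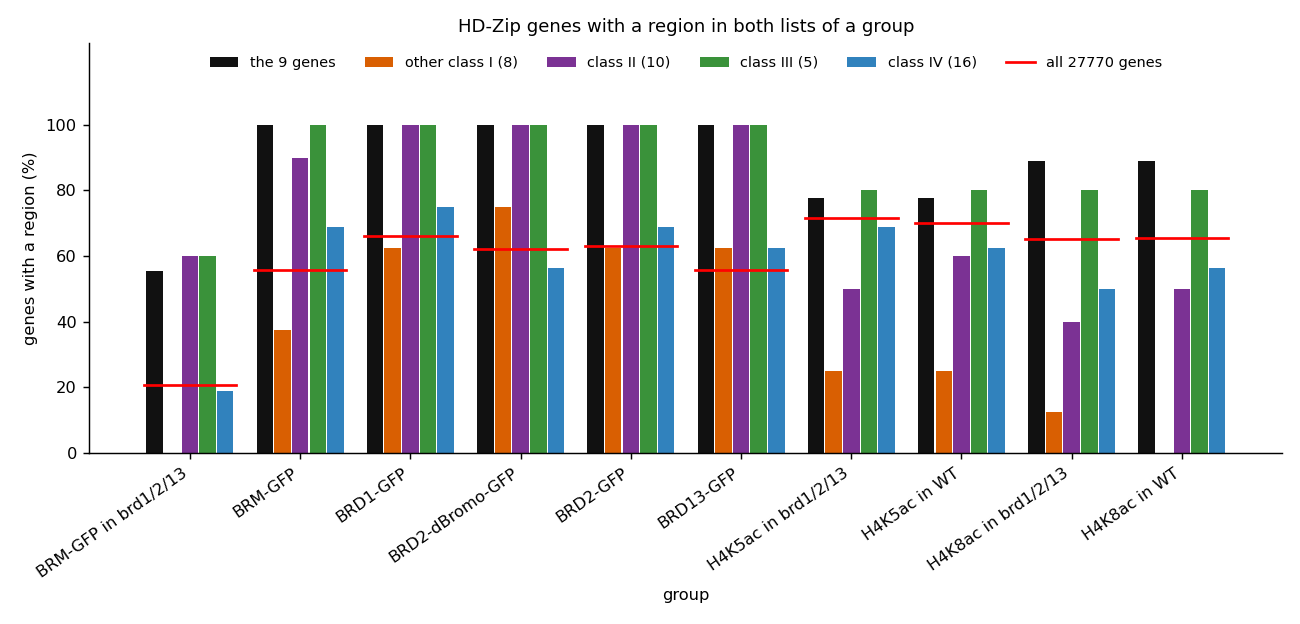
Percent of genes with a region in each of the 10 groups for the 9 genes, the other 8 class I genes, class II, class III and class IV, with a red line for all 27770 genes. The 9 genes are at 100% in all GFP groups other than BRM-GFP in brd1/2/13, where 5 of 9 have a region, against 0 of the other 8 class I genes.

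The gene outside the HD-Zip family with the most similar percentiles over the 20 lists was, by the root mean square difference, UBQ10 for HB1 (2.57 points), EXLA1 for HB5 (4.25), TIC for HB6 (5.08) and BME3 for HB16 (3.91). It was AT4G24760 for HB7 (7.53), AT4G23870 for HB12 (4.13), EIR1 for HB13 (9.51), AT3G62360 for HB20 (10.8) and AT2G36885 for HB23 (3.94). UBQ10 encodes a polyubiquitin, EXLA1 an expansin-like protein, TIC a clock regulator, BME3 a GATA factor of seed germination and EIR1 the auxin exporter PIN2. Among the 9, the nearest gene was of the same clade for HB1, HB5, HB6, HB16, HB13 and HB23. It was of another clade for HB12, HB7 and HB20, with HB5, HB23 and HB7.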

How the data were processed

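ChIP-seq peak lists of 14-day-old seedlings were analysed, 20 in all for 10 groups of 2 replicates. The authors called peaks per sample and did not pool replicates. Bowtie, deepTools, MACS2 2.1.1 and the TAIR10 build stand in the submitters' processing notes, without roles or settings, and the use of the inputs in peak calling is not given in the sources used here. The deposited lists give for each peak a fold, which is the ratio of reads at the summit to the local background, the −log10 of p and of q, and a score, 10 times the −log10 q, that was not used further. Peak names of both lists of BRM-GFP in brd1/2/13 differ in form from the others, and their largest q was 0.01 against 0.05, so their weak peaks were held to another limit.

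Gene windows came from the RefSeq annotation of TAIR10. A region was a merged stretch with a peak of each replicate, and a gene had it where the region overlapped its window by 1 bp. Reads at a summit were solved from the fold and the Poisson p, came out whole within 0.02 reads for at least 99.8% of peaks in each list, and were recovered for 100% of 2000 drawn peaks. Depth was known only through these background values. Upstream sequences, summit sequences and proteins were read from the RefSeq genome of TAIR10. All 9 genes were found there, and identity was taken from global alignments.

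The 9 genes and the other lists were chosen with earlier results of these data known, and so were the fold limit of 5 and the percentile limit of 99. All 9 genes are named. Of other HD-Zip genes only those of class I are named, and for each of the 9 the 1 gene outside the family with the most similar percentiles over the 20 lists, whose window shares no peak with it. The alternatives changed the window, the summit rule, the q limit, the number of peaks, the overlap and the replicates used. Calculations used Python 3.11.15, NumPy 2.4.6, pandas 2.3.3, SciPy 1.17.1, Biopython 1.88 and Matplotlib 3.10.9.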

Additional observations from a re-analysis of the deposited data

How the results depend on the processing

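Of 144 values recomputed under other settings, 118 stayed within their limits and 26 moved. Counts within a factor of 1.5, and medians that changed by less than the spread between replicates, count as within their limits. A change of sign was called only for medians larger than that spread, those of BRM-GFP and H4K8ac, and 0 of these changed sign. The smaller medians of H4K5ac and BRD2-dBromo-GFP did. The H4K5ac median log2 ratio, 0.073, turned to -0.018 with the gene body only and with the summit required in the window. With peaks at q of 1e-10 or less, BRM-GFP in brd1/2/13 had a region at 3 genes in place of 5, H4K8ac in brd1/2/13 at 4 in place of 8, and BRM-GFP at 0 of the other class I genes in place of 3. With 6129 peaks kept in each list, H4K5ac regions fell to 2 genes in brd1/2/13 and 1 in WT, and H4K8ac regions to 1 in brd1/2/13 and 1 in WT. BRM-GFP regions of the other class I genes fell to 0, and lost genes numbered 1 in place of 2. There BRM-GFP, BRD2-GFP and BRD2-dBromo-GFP each had a region at 6 of the 9 genes, BRD1-GFP at 7 and BRD13-GFP at 8. BRM-GFP in brd1/2/13 stayed at 5. With the summit required in the window, BRD1-GFP had a region at 5 genes in place of 9, BRM-GFP at 1 of the other class I genes, 3 genes were retained and the BRD2-dBromo-GFP median log2 ratio was -0.27. With mutant peaks over 50% of a region, 3 genes were retained and 5 lost. The BRM-GFP median log2 ratio was -1.49 with 2 kb upstream and -0.34 after subtracting the median of all genes, and the BRD2-dBromo-GFP one -0.37 with the gene body only and 0.033 after subtraction.

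With each replicate left out in turn, regions numbered 5 to 7 in BRM-GFP in brd1/2/13, 9 to 9 in BRM-GFP and each BRD group, 7 to 9 and 7 to 8 for H4K5ac in brd1/2/13 and WT, and 8 to 9 for H4K8ac in both. BRM-GFP regions of the other class I genes numbered 3 to 4, retained genes 5 to 7 and lost genes 2 to 4. Median log2 ratios ran from -1.66 to -1.43 for BRM-GFP, -0.38 to -0.10 for BRD2-dBromo-GFP, 0.0092 to 0.21 for H4K5ac and -0.18 to -0.030 for H4K8ac. No paired analysis was possible because the values are descriptions without a test, and no label ties a replicate number in one group to the same number in another. Whether the causes of these changes lie in depth or in peak calling was not tested.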
